A study of Piaractus mesopotamicus and Piaractus mesopotamicus x Colossoma macropomum and Colossoma macropomum with 15 samples.

Results

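The spread between individual fish of the same genotype was measured for muscle miRNAs in the hybrid tambacu and in both of its parental species. Small RNA libraries came from fast muscle of 15 untreated early juvenile fish, each library from 1 fish. TC was the hybrid tambacu, from female tambaqui crossed with male pacu (5 fish), PC was pacu, Piaractus mesopotamicus (5 fish), and TQ was tambaqui, Colossoma macropomum (5 fish). No group carried a transgene or received a treatment, and reads of all 3 genotypes were counted on miRNA sequences of another species, Danio rerio. Counts of the copies of a mature miRNA were summed, and a miRNA was kept when its mean over all fish was at least 100 normalized counts. This left 112 of the 369 mature names in the table, of which 214 had any count, on 595 loci in all. The kept names held 99.95% of all counts, and none of them had a count of 0 in any fish. Of these names 28 were summed over 2 or more copies, and a read that fit several copies may have been counted on each. Just under the minimum were miR-140-5p, miR-192 and miR-100-3p, with means of 90.7, 92.8 and 99.2 normalized counts. Just above it were miR-7147, miR-187 and miR-10b-3p, with 107, 123 and 128.

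miRNAs are short RNAs that guide Argonaute proteins to messenger RNAs, usually through bases near their 5′ end called the seed, and lower the output of those messengers. Fast muscle fibers carry a characteristic set of them, including miR-1 and miR-206. A muscle sample also holds blood, vessels, connective tissue and nerve, each with miRNAs of its own.

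Total counts were 2422820 to 5669084 per fish, and TC 8 had the lowest total. Within the 3 genotypes, the 30 pairs of fish differed by 121 to 5871 times the chi-square expected from counting per degree of freedom, so no library was a duplicate of another of its genotype. Pairs across genotypes were not compared in this way. The muscle markers miR-1 and miR-206-3p were kept, whereas miR-133a-3p and miR-133b-3p, both typical of muscle, had 0 counts in every fish. PC 4 stood apart from its group, since its root mean square distance to the mean of the other PC fish (0.633, log2) exceeded that to the mean of all TQ fish (0.519). Values without PC 4 are given beside the distances, the SDs of miR-203a-3p, miR-205-5p and miR-10a-5p, the pair led by miR-10a-5p and the components.

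The sequences below are those of the miRNAs on which the results turn, at the variable end, at the stable end and in the test of spread between genotypes. They are the mature sequences at which reads were counted, written as DNA from 5′ to 3′ as in the Danio rerio reference, with the seed (bases 2 to 8) in capitals.
miR-203a-3p: gTGAAATGtttaggaccacttg
miR-205-5p: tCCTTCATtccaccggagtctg
miR-451: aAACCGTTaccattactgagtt
miR-144-3p: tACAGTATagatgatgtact
miR-2188-5p: aAGGTCCAacctcacatgtcc
miR-2188-3p: cTGTGTGAggttagacctatc
miR-10a-5p: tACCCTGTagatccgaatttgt
miR-145-3p: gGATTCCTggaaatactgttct
miR-16c-5p: tAGCAGCAtgtaaatattggag
miR-457a: aAGCAGCAcatcaatattggca
miR-499-5p: tTAAGACTtgcagtgatgttta
miR-92a-3p: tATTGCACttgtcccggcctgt
miR-92b-3p: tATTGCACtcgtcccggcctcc
miR-143: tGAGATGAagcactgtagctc
let-7i: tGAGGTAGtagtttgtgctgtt
let-7g: tGAGGTAGtagtttgtatagtt
miR-1: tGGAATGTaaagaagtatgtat
miR-206-3p: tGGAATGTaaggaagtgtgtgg
miR-181a-5p: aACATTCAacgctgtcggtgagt

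miR-1 and miR-206-3p have the same seed, as do miR-92a-3p and miR-92b-3p, let-7i and let-7g, and miR-16c-5p and miR-457a. Positions were taken from 1 at the 5′ end of the Danio rerio precursor. miR-203a-3p lies at 70 to 91 of the 96 bases of mir-203a, miR-451 at 11 to 32 of the 60 bases of mir-451, and miR-206-3p at 59 to 80 of the 99 bases of mir-206-1, the first of 2 places. miR-2188-5p and miR-2188-3p lie on opposite arms of mir-2188, at 23 to 43 and 62 to 82 of its 104 bases. Places in the genomes of pacu and tambaqui were not analysed here.

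Where 5 values are given for a genotype, they stand in the order TC 3, 4, 5, 6 and 8, then PC 3, 4, 5, 8 and 10, then TQ 1, 2, 3, 6 and 8. Levels are scaled counts, which are counts divided by a TMM-adjusted library size relative to the average fish. Spread is the SD over 5 fish of log2(scaled count + 1), and the pooled SD joins the 3 genotypes after each genotype mean is removed. The median SD over the 112 miRNAs was 0.261 in TC, 0.319 in PC and 0.262 in TQ, and the median pooled SD was 0.289. A typical miRNA thus lay within 1.22-fold of its genotype mean at 1 pooled SD. The pooled SD ranged from 0.14 for miR-92a-3p to 1.16 for miR-203a-3p, with 25 miRNAs at 0.5 or more and 19 under 0.2. It was at least 2 times the SD expected from counting error alone for 108 of 112 miRNAs, with a median ratio of 7.81. Counting error covers sampling of reads only, since PCR copies of a molecule were not distinguished. It is set too low for a miRNA whose reads were counted on several copies. With 1 library per fish, differences between fish cannot be told apart from variation in dissection, RNA extraction and library preparation.

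**Figure D1:**
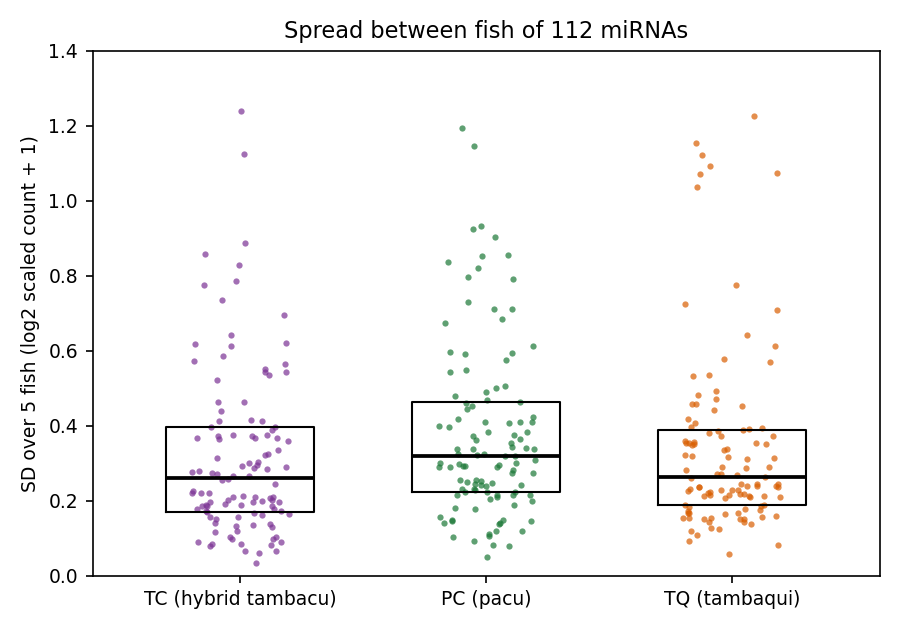
SD over 5 fish of log2(scaled count + 1) for each of 112 miRNAs (points) in TC, PC and TQ, with boxes from the 25th to the 75th percentile and a line at the median. The medians are 0.261 in TC, 0.319 in PC and 0.262 in TQ, and the 3 sets of points cover much the same range.

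The hybrid was not shown to differ from its parents in the overall distance of its fish from their genotype mean. Each fish was given 1 value, the root mean square over the 112 miRNAs of its deviation from its genotype mean, corrected for the fish being part of that mean. In TC the distance was 0.386 for TC 3, 0.404 for TC 4, 0.270 for TC 5, 0.337 for TC 6 and 0.515 for TC 8. In PC it was 0.389 for PC 3, 0.567 for PC 4, 0.380 for PC 5, 0.538 for PC 8 and 0.295 for PC 10. In TQ it was 0.362 for TQ 1, 0.513 for TQ 2, 0.357 for TQ 3, 0.406 for TQ 6 and 0.441 for TQ 8. The 3 groups overlapped, PC 4 and PC 8 lay farthest from their mean, and the closest fish was TC 5.

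The mean distance was 0.382 ± 0.0907 in TC, 0.434 ± 0.115 in PC and 0.416 ± 0.0643 in TQ (SD, n = 5 each). Tests were exact permutation tests, two-sided, with p adjusted over the 4 comparisons. TC minus PC was -0.0515 (exact permutation test, p = 0.429, adjusted p = 0.688). TC minus TQ was -0.0338 (exact permutation test, p = 0.516, adjusted p = 0.688). PC minus TQ was 0.0177 (exact permutation test, p = 0.762, adjusted p = 0.762). TC minus the 10 parental fish, whose mean was 0.425 ± 0.0882, was -0.0426 (exact permutation test, p = 0.394, adjusted p = 0.688). The smallest p this test can give is 0.00794 for 5 fish against 5 and 0.000333 for 5 against 10. TC minus PC was -0.102 without TC 8 (exact permutation test, adjusted p = 0.243) and -0.00386 without PC 4 (exact permutation test, adjusted p = 0.944). The sign of TC minus TQ turned to 0.00291 without TC 5, and that of PC minus TQ turned to -0.0299 without PC 4, -0.0100 without PC 8 and -0.00075 without TQ 3. These p values do not show that the genotypes vary alike.

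**Figure D2:**
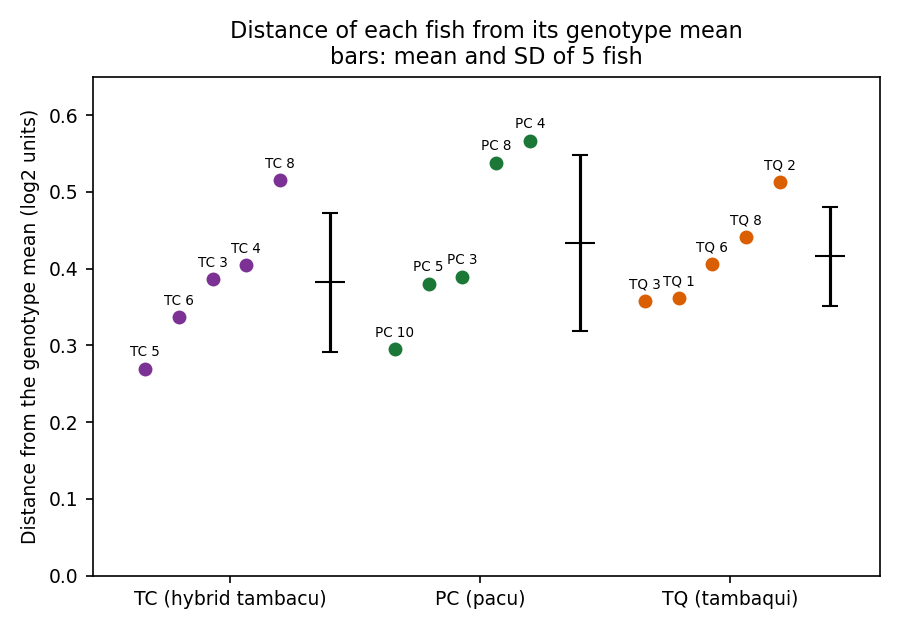
Distance of each fish from its genotype mean over 112 miRNAs, in log2 units, for TC, PC and TQ, with bars for the mean and SD of 5 fish. TC 8, PC 4, PC 8 and TQ 2 lie above 0.5, and the fish of the 3 genotypes overlap.

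Taken miRNA by miRNA, SDs were most often highest in PC. PC had the highest of the 3 SDs for 50 miRNAs, TC for 31 and TQ for 31. TC had the lowest SD for 47 miRNAs, PC for 19 and TQ for 46. The median ratio of SDs was 0.855 for TC over PC, with TC higher for 42 miRNAs and lower for 70. It was 0.961 for TC over TQ, with TC higher for 54 and lower for 58. For PC over TQ it was 1.22, with PC higher for 73 and lower for 39. miRNAs of 1 fish are not independent, so these counts are a description and not a test. PC kept the highest median SD in all 29 settings, and TC the lowest in 22 of them with TQ lowest in the other 7. Of these settings 15 left out 1 fish, which changes only the median of its own genotype. The settings thus largely repeat one another, and the tally is no measure of certainty. The median SD of TC was 0.220 without TC 8, and that of PC was 0.298 without PC 4. With total counts as library sizes the medians were 0.339 in TC, 0.530 in PC and 0.295 in TQ. TMM factors, which separate these scalings, spanned 0.730 to 0.991 in TC, 0.579 to 1.25 in PC and 1.04 to 1.47 in TQ.

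The most variable miRNA was miR-203a-3p, which in vertebrates is abundant in the epidermis. It had 76.9, 229, 192, 293 and 36.5 scaled counts in TC, 207, 45.2, 422, 154 and 255 in PC and 254, 44.7, 248, 140 and 208 in TQ. Each genotype held 1 fish at or under 45.2 scaled counts (TC 8, PC 4 and TQ 2), and the genotypes overlapped throughout. The SD was 1.24 in TC, 1.19 in PC and 1.04 in TQ, and only 2.63% of its sum of squares lay between genotypes. Leaving out each fish in turn and changing the scaling or thinning the counts left miR-203a-3p first in 18 of 18 settings tried, and its pooled SD was 1.03 without PC 4.

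miR-205-5p, another miRNA of vertebrate epithelia, had a pooled SD of 0.76, and of 0.74 without PC 4. Its level spanned 57.1 to 175 scaled counts in TC, 67.5 to 261 in PC and 83.3 to 325 in TQ. TC 8, PC 4 and TQ 2, the fish lowest in miR-203a-3p, were also the lowest of their genotypes for miR-205-5p. The list of 9 epithelial markers had a summed level of 95.2 to 423 in TC, 124 to 707 in PC and 132 to 603 in TQ, with the lowest sum in TC 8. Of these 9, 5 (miR-203b-3p, miR-200a-3p, miR-200b-3p, miR-200c-3p and miR-141-3p) had 0 counts in every fish. In whole tissue, fewer cells of a type and less RNA per cell cannot be told apart, and the part of either in these differences was not tested.

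Next in pooled SD stood miR-451 (0.88) and miR-144-3p (0.87), which are made from 1 cluster and are abundant in red blood cells, then miR-2188-5p (0.85), miR-10a-5p (0.82) and miR-2188-3p (0.81). miR-451 had 6354, 7415, 11880, 9425 and 17093 scaled counts in TC, 5109, 6028, 4931, 1819 and 2956 in PC and 5744, 2881, 8957, 20367 and 21082 in TQ. TC and PC did not overlap, TQ overlapped both, and within TQ the fish differed by up to 7.32-fold. The SD was 0.57 in TC, 0.71 in PC and 1.23 in TQ.

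miR-144-3p had 21898, 6859, 16007, 16925 and 35100 scaled counts in TC, 8316, 3881, 10788, 8084 and 9516 in PC and 5342, 1739, 5549, 14022 and 7440 in TQ. TC 8 was the highest fish and TQ 2 the lowest for miR-144-3p, as TQ 2 was the lowest TQ fish for miR-451. The summed level of the 3 erythroid markers was 14274 to 52192 in TC, 9902 to 15721 in PC and 4621 to 34390 in TQ, and the third marker, miR-144-5p, had 8 counts in all.

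The arms of mir-2188 varied in the same fish. miR-2188-5p had 7190, 6389, 11470, 11414 and 21642 scaled counts in TC, 4934, 4518, 5962, 2082 and 3230 in PC and 5540, 2583, 8008, 18681 and 15444 in TQ. TC 8, TQ 6 and TQ 8 were highest, and PC 8 and TQ 2 lowest. Its SD was 0.69 in TC, 0.60 in PC and 1.16 in TQ, and that of miR-2188-3p was 0.38 in TC, 0.82 in PC and 1.07 in TQ.

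miR-10a-5p, which lies in a Hox gene cluster in vertebrates, varied most in PC. It had 36267, 11477, 13984, 19741 and 33225 scaled counts in TC, 8264, 3025, 3943, 21426 and 11394 in PC and 10109, 8041, 15557, 11121 and 7523 in TQ. PC fish differed by up to 7.08-fold, TC fish by 3.16-fold and TQ fish by 2.07-fold, and the genotypes overlapped. The SDs were 0.74 in TC, 1.15 in PC and 0.42 in TQ. Without PC 4, its lowest fish, the SD in PC was 1.02 and the PC range 5.43-fold, and without PC 8, its highest, they were 0.89 and 3.77-fold.

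miR-499-5p, which in vertebrates lies in a myosin gene of slow and cardiac muscle, had a pooled SD of 0.75. It had 2912, 1887, 2789, 1086 and 2194 scaled counts in TC, 1644, 1975, 2391, 1105 and 2371 in PC and 210, 600, 1344, 248 and 504 in TQ. TQ 3 was the only TQ fish within the range of TC and PC, and TQ fish differed by up to 6.41-fold. The SD was 0.57 in TC, 0.46 in PC and 1.07 in TQ.

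Also among the 10 most variable were miR-184, with a pooled SD of 0.79, and miR-7147, with 0.76. miR-184, found in lens and cornea in the mouse, spanned 222 to 474 scaled counts in TC, 130 to 419 in PC and 29.8 to 213 in TQ. TQ 2 was the lowest fish for miR-184, and the next lowest TQ fish had 140. Its place among the 10 rested on TQ 2, since without that fish its pooled SD was 0.49 and its rank 25. miR-7147 had a mean of 109 scaled counts, the lowest depth among the 10, and a pooled SD of 4.75 times its counting SD. Together the 10 most variable miRNAs held 36.9% of the within-genotype variance summed over the 112, and the first 20 held 57.6%.

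**Figure D3:**
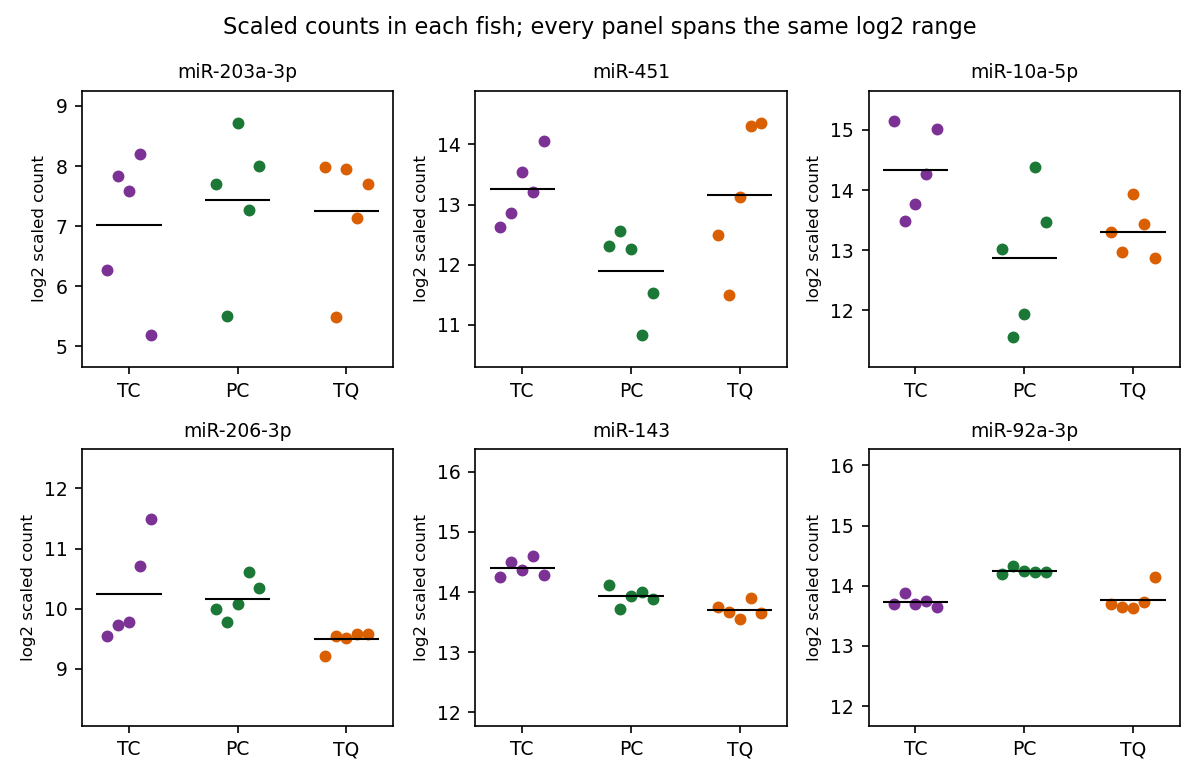
Log2 scaled counts in each fish (points) with the genotype mean (line) for TC, PC and TQ, for 4 variable and 2 stable miRNAs, each panel spanning the same log2 range. Fish spread widely for miR-203a-3p, miR-451 and miR-10a-5p, whereas miR-143 and miR-92a-3p stay close to their genotype means, and 2 of the 5 TC fish stand above the others for miR-206-3p.

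The least variable miRNAs were miR-92a-3p (pooled SD 0.14), miR-143 (0.14), let-7i (0.14), let-7g (0.14), let-7d-5p (0.15), miR-92b-3p (0.16), miR-22a-3p (0.17), miR-30e-3p (0.17), miR-193b-3p (0.17) and miR-214 (0.18). miR-92a-3p belongs to the miR-17 cluster of vertebrates, known for its part in cell proliferation. It had 13295, 15129, 13310, 13671 and 12894 scaled counts in TC, 18774, 20505, 19499, 19149 and 19119 in PC and 13241, 12854, 12615, 13602 and 18029 in TQ. PC stood above TC and TQ without overlap, and TQ 8 lay apart from the other TQ fish, without which the pooled SD was 0.066. The SD was 0.09 in TC, 0.05 in PC and 0.21 in TQ.

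miR-143, a miRNA of smooth muscle and other mesenchymal cells, had 19443, 23240, 21038, 24878 and 19829 scaled counts in TC, 17819, 13545, 15631, 16339 and 15162 in PC and 13722, 13035, 12030, 15256 and 12834 in TQ. All TC fish lay above all PC and TQ fish, and its SD was 0.15 in TC, 0.15 in PC and 0.13 in TQ.

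let-7g, of the let-7 family that times development in animals, had 82776, 72957, 62901, 81361 and 69033 scaled counts in TC, 50284, 44385, 47308, 53358 and 46737 in PC and 38348, 41988, 49460, 49321 and 43522 in TQ. TC did not overlap the other genotypes, whereas PC and TQ overlapped. let-7i was as stable with less depth, at 898 to 1130 scaled counts in TC, 937 to 1202 in PC and 949 to 1223 in TQ. Several let-7 members differ by 1 base, so reads shared between them may be divided unevenly in the counts.

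A stable miRNA within genotypes could still differ between them. The share of the sum of squares that lay between genotypes had a median of 37.8% over the 112 miRNAs. It was 88.1% for miR-489, 85.8% for let-7g, 83.8% for miR-143, 81.6% for miR-221-3p and 78.7% for miR-92a-3p. The list of stable miRNAs depended on the scaling. With DESeq2 size factors 6 of the 10 stayed among the 10 least variable, and with total counts 1 did, against 10 and 8 of the 10 most variable.

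The spread of single miRNAs was compared between genotypes with limma on absolute deviations from the genotype mean, in log2 units, for all 112 miRNAs. A miRNA was called when padj, its p adjusted by Benjamini-Hochberg over the 112, was 0.05 or lower. TC vs. PC gave 0 calls (0%), TC vs. TQ also 0 (0%), and PC vs. TQ likewise 0 (0%). For TC vs. the mean of PC and TQ 1 miRNA was called (0.893%). At an unadjusted p under 0.05 limma gave 14 miRNAs for TC vs. PC (12.5%), of which 3 were more variable in TC and 11 less. It gave 16 for TC vs. TQ (14.3%), 5 more variable in TC and 11 less, and 8 for PC vs. TQ (7.14%), 3 more variable in PC and 5 less. For TC vs. the mean of PC and TQ it gave 16 (14.3%), 6 more variable in TC and 10 less. An exact permutation test of each miRNA gave 15, 13, 6 and 15 at an unadjusted p under 0.05 in the same 4 comparisons, and called 0, 0, 0 and 2 after adjustment. For 5 fish against 5 the smallest p of this test is 0.00794, which leaves little room for a call after adjustment over 112 miRNAs. Its 0 calls between 2 genotypes therefore decide nothing. With single fish left out the limma count for TC vs. PC became 1 without PC 4, 2 without PC 5 and 4 without PC 10. That for TC vs. TQ became 1 without TC 4 or TC 5, 2 without TQ 1 and 4 without TQ 2. That for PC vs. TQ became 1 without PC 4, PC 5 or PC 10. That for TC vs. the parents became 2 without TC 3, TC 4 or TC 5, where miR-181a-5p was added, and 0 without any of 9 other fish.

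The miRNA called was miR-206-3p, which is typical of vertebrate skeletal muscle and was more variable in the hybrid. It had 748, 844, 877, 1677 and 2881 scaled counts in TC, 1018, 882, 1087, 1560 and 1295 in PC and 596, 751, 727, 766 and 768 in TQ. TC 6 and TC 8 stood above all other fish, 4 of 5 TQ fish lay close together, and TC overlapped both parents. The SD was 0.83 in TC, 0.32 in PC and 0.15 in TQ, and the mean absolute deviation of TC exceeded that of the parents by 0.56 (SE 0.12, limma, padj = 0.0463). This p is approximate, because limma's p fell under 0.05 somewhat too often on counts simulated with no difference in spread, and 1 call in 4 comparisons is weak evidence. The simulation gave every miRNA the same SD and drew miRNAs independently, unlike these data, so its rate does not carry over to them. TC exceeded TQ by 0.64 (SE 0.14, limma, padj = 0.0519) and PC by 0.48 (SE 0.14, limma, padj = 0.157).

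The call for miR-206-3p depended on single fish and on the processing. Without TC 8 the excess over the parents was 0.25 (limma, padj = 0.417), and it was not called without TC 6, PC 3, PC 5, PC 10, TQ 2, TQ 3, TQ 6 or TQ 8, where padj was 0.0785 to 0.122. It was not called with DESeq2 size factors (padj = 0.0805) or total counts (padj = 0.445), with a minimum of 10 (padj = 0.0676) or none (padj = 0.117), or with only the highest copy (padj = 0.0764) or copies as separate loci (padj = 0.0659). Deviations from the genotype median gave no call either, nor did the fish number as a replicate block (padj = 0.130). It was called with a minimum of 1000 (padj = 0.0272), both other pseudocounts and thinned counts (padj = 0.0455 to 0.0486). miR-1, the other muscle miRNA kept and of the same seed, had a pooled SD of 0.22, with 0.26 in TC, 0.18 in PC and 0.22 in TQ. miR-1 had 5249, 7578, 6845, 8484 and 6883 scaled counts in TC, so TC 8 did not stand out for it.

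The second miRNA called by the exact permutation test, for TC vs. the parents, was miR-181a-5p (p = 0.000333, the smallest this test can give, padj = 0.0186; miR-206-3p had the same values). It had 73220, 76074, 79137, 68754 and 28709 scaled counts in TC. PC fish spanned 66915 to 78529 and TQ fish 67986 to 75917. TC 8 lay below every other fish, whereas the other 4 TC fish overlapped both parents. TC 8 also moved the TC mean, so these 4 deviated from it by 0.164 to 0.367 (log2). No parental fish deviated from its own mean by more than 0.116. Deviations of 1 genotype share its mean and are not independent, so p of the exact permutation test is approximate here and for miR-206-3p. The SD was 0.62 in TC, 0.11 in PC and 0.06 in TQ, and limma gave an excess of 0.42 in TC (SE 0.13, padj = 0.169). Without TC 8 the excess was 0.00426 (limma, padj = 0.985), and miR-181a-5p was the least variable of the 112 miRNAs.

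Beside miR-206-3p, the miRNAs with the lowest p in limma included several that were not called in any comparison. miR-20b-5p, of the miR-17 family, had SDs of 0.17 in TC, 0.68 in PC and 0.16 in TQ. It had 94.6, 215, 300.1, 116 and 197 scaled counts in PC, against 129 to 173 in TC and 185 to 238 in TQ. The difference was -0.46 for TC vs. PC (SE 0.12, limma, padj = 0.134) and 0.46 for PC vs. TQ (SE 0.12, limma, padj = 0.142). Leaving out 1 fish gave miR-20b-5p a limma padj of 0.00705 to 0.480 for TC vs. PC and 0.00746 to 0.580 for PC vs. TQ. miR-17a-5p, which differs from it by 2 edits and may share reads with it, had SDs of 0.17 in TC, 0.55 in PC and 0.19 in TQ. miR-458-3p had SDs of 0.37 in TC and 0.14 in PC (limma, padj = 0.157, and 0.0156 to 0.571 with 1 fish left out). miR-7b was less variable in TC, with an SD of 0.09, than in TQ, with 0.58 (limma, padj = 0.206, and 0.0425 to 0.599 with 1 fish left out). miR-10c-5p had SDs of 0.13 in TC, 0.41 in PC and 0.44 in TQ, and gave -0.28 for TC vs. the parents (SE 0.08, limma, padj = 0.169).

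Deviations were then compared between miRNAs over the 15 fish, after the genotype means were removed, to find which rose and fell in the same fish. Over all 6216 pairs the median Pearson r was 0.06, with 80 pairs at 0.8 or more and 28 at -0.8 or less. The 94 pairs with the same seed had a median r of 0.40, and the 40 of them that differ by more than 3 edits had 0.26. The 13 pairs taken as opposite arms, by the first listed precursor or by name, had a median of 0.38. Arm pairs on further copies of a precursor could be missed, as were miR-181a-5p and miR-181a-2-3p. Also outside the 13 were miR-199-5p and miR-199-3-3p, with r = -0.89. The 55 pairs within 3 edits had 0.46, and their reads may be shared. These pairs share libraries and scaling, and the correlations are a description.

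The 10 highest pairs beyond 3 edits and not on 1 precursor, chosen for their r, all kept the same sign in the 3 genotypes. So high an r over all fish makes that likely by itself. No other scaling was tried on these 10 pairs. miR-10a-5p and miR-145-3p, which share no seed, had r = 0.98 and rho = 0.996, with r = 0.97 to 0.99 when any 1 fish was left out and 0.98 without PC 4. miR-145-3p had 9016, 3935, 3525, 5116 and 7548 scaled counts in TC, 6273, 2631, 3490, 13835 and 6889 in PC and 4211, 3407, 5819, 5181 and 3056 in TQ. PC 8 was highest and PC 4 lowest in PC for both miRNAs, and TC 3 and TC 8 were the highest TC fish for both. miR-16c-5p and miR-457a, which share the seed of the miR-15/16 family, had r = 0.98 and rho = 0.98. miR-2188-5p and miR-451 had r = 0.97 and rho = 0.96, and miR-199-5p and miR-27b-3p had r = 0.94 and rho = 0.92. miR-27a-3p paired with miR-96-5p at 0.93, with miR-7147 at 0.93 and with miR-10a-5p at 0.92. The remaining 3 were miR-100-5p with miR-1388-5p, miR-2188-3p with miR-451, and miR-19a-3p with miR-454b, at r = 0.91 each. The lowest pair was miR-145-3p and miR-181a-2-3p, with r = -0.93.

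Of 36 pairs listed for a shared precursor or genomic cluster in vertebrates, 16 had both members kept, and 1 was called after adjustment over the 16. miR-2188-5p and miR-2188-3p had r = 0.86 (permutation test within genotypes, two-sided, p = 0.00027, adjusted p = 0.00432) and rho = 0.90 (permutation test, adjusted p = 0.00272). Without TQ 2 and TQ 6, the fish farthest from the median of miR-2188-5p, r was 0.84. miR-144-3p and miR-451 had r = 0.59 and rho = 0.56 (permutation test, adjusted p = 0.167 and 0.177), and r was 0.33 without TQ 2 and TC 4. Their deviations kept this sign in 2 of the 3 genotypes and ran opposite in PC, where PC 4 had -0.985 for miR-144-3p and 0.657 for miR-451. miR-462 and miR-731 had r = 0.62 and rho = 0.60 (permutation test, adjusted p = 0.167 and 0.177), and 0.44 without PC 3 and PC 10. The arms miR-199-5p and miR-199-3p had r = -0.54 and rho = -0.48 (permutation test, adjusted p = 0.167 and 0.177), and r was -0.51 without PC 3 and PC 8. miR-143 and miR-145-5p had r = -0.16 and rho = -0.16 (permutation test, adjusted p = 0.683 and 0.664), and r was -0.50 without TC 6 and TQ 6. Of the 16 pairs, 12 had r above 0, with a median of 0.41.

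The pair results turned on the scaling. With total counts as library sizes 9 of the 16 pairs were called, and miR-199-5p and miR-199-3p had r = 0.56 (permutation test, adjusted p = 0.148).

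**Figure D4:**
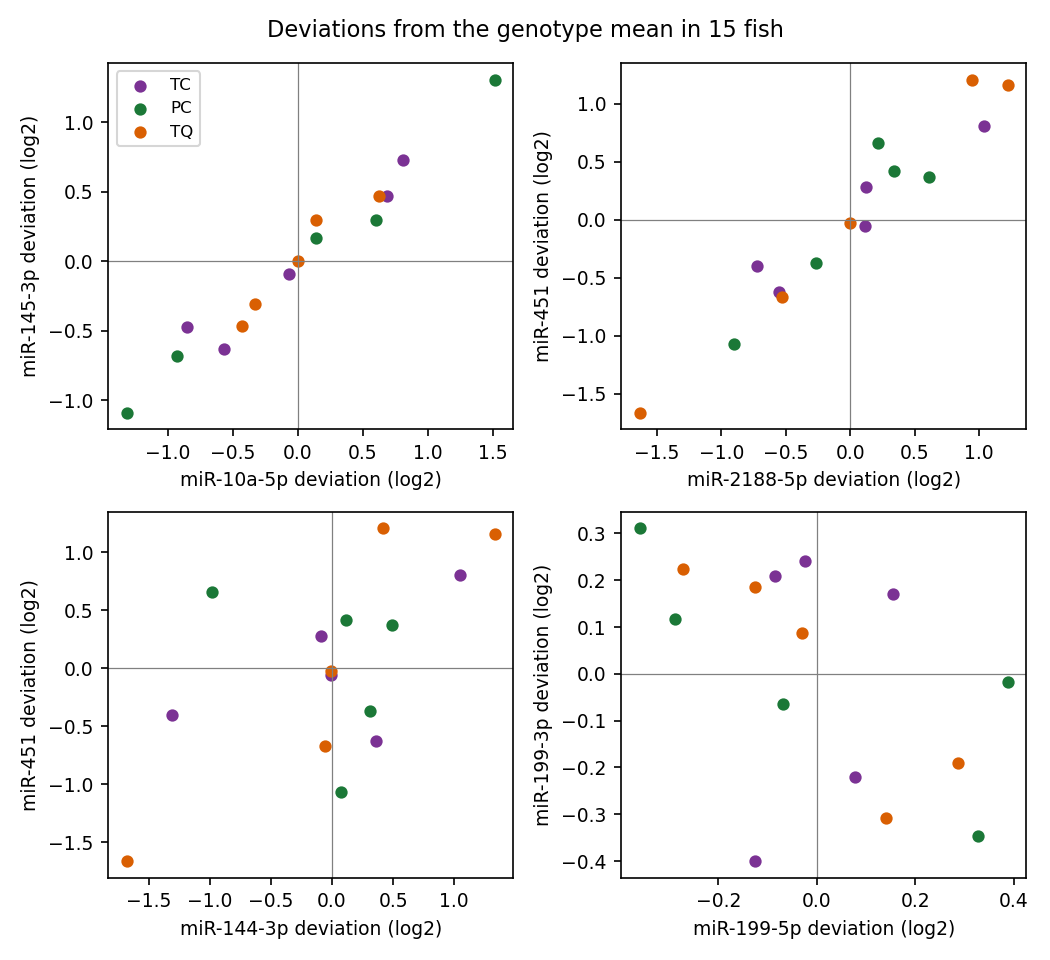
Deviations from the genotype mean (log2) in 15 fish for 4 pairs of miRNAs, coloured by genotype in the order TC, PC, TQ. miR-10a-5p and miR-145-3p (r = 0.98) and miR-2188-5p and miR-451 (r = 0.97) lie close to a line, miR-144-3p and miR-451 (r = 0.59) scatter, and miR-199-5p and miR-199-3p (r = -0.54) slope downward.

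The first principal component of the deviations held 33.2% of their variance, the second 17.2% and the third 14.8%. Deviations were not scaled to equal variance, so miRNAs with a high SD weigh most in these components. On the first, miR-10a-5p, miR-7147, miR-145-3p, miR-96-5p, miR-27a-3p, miR-183-5p, miR-99, miR-457a, miR-100-5p and miR-144-3p had the highest loadings. PC 8 scored 4.42, TC 3 2.50 and TC 8 2.28, whereas PC 4 scored -4.38, TC 4 -2.71 and TQ 8 -2.39. miR-210-3p, which rises in low oxygen in vertebrates, had the lowest loading, and was at 883 scaled counts in PC 8 against 1621 in PC 4. Without PC 4 the first component held 30.6%, and 7 of its 10 highest loadings were among the same 10, and without PC 8 it held 29.1% with 8 of the 10.

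The share of reads taken by abundant miRNAs differed between the fish at both ends of the first component. miR-100-5p held 34.4% of the counts of PC 8 and 16.4% of those of PC 4, the highest and lowest shares in PC. It held 30.4% in TC 3 and 21.4% to 23.8% in the other TC fish, TC 8 being the lowest. The TMM factor was 0.579 in PC 8 and 1.25 in PC 4, again the extremes of PC, and the part of the scaling in this component was not tested. miR-99 differs from miR-100-5p by 1 edit, and the pair had r = 0.98.

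The second component had its highest loadings on miR-2188-5p, miR-451, miR-144-3p, miR-2188-3p and miR-184. TQ 2 scored -4.15 on it, whereas TQ 6 scored 2.31, TQ 8 2.24 and TC 8 1.79. The third had its highest loadings on miR-203a-3p, miR-205-5p and miR-184. TC 8 scored -3.44, PC 4 -2.64 and TQ 2 -1.71 on it, and TQ 1 scored 2.37. These 2 components depended on single fish. Without TQ 2 the loadings of the second correlated at no more than 0.457 in size with those of any of the first 3, the third stood second, and without TC 8 only 5 of the 10 highest loadings of the third were among the same 10. Without PC 4 the second held 20.2% and the third 12.0%, and 9 of the 10 highest loadings of each were among the same 10.

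**Figure D5:**
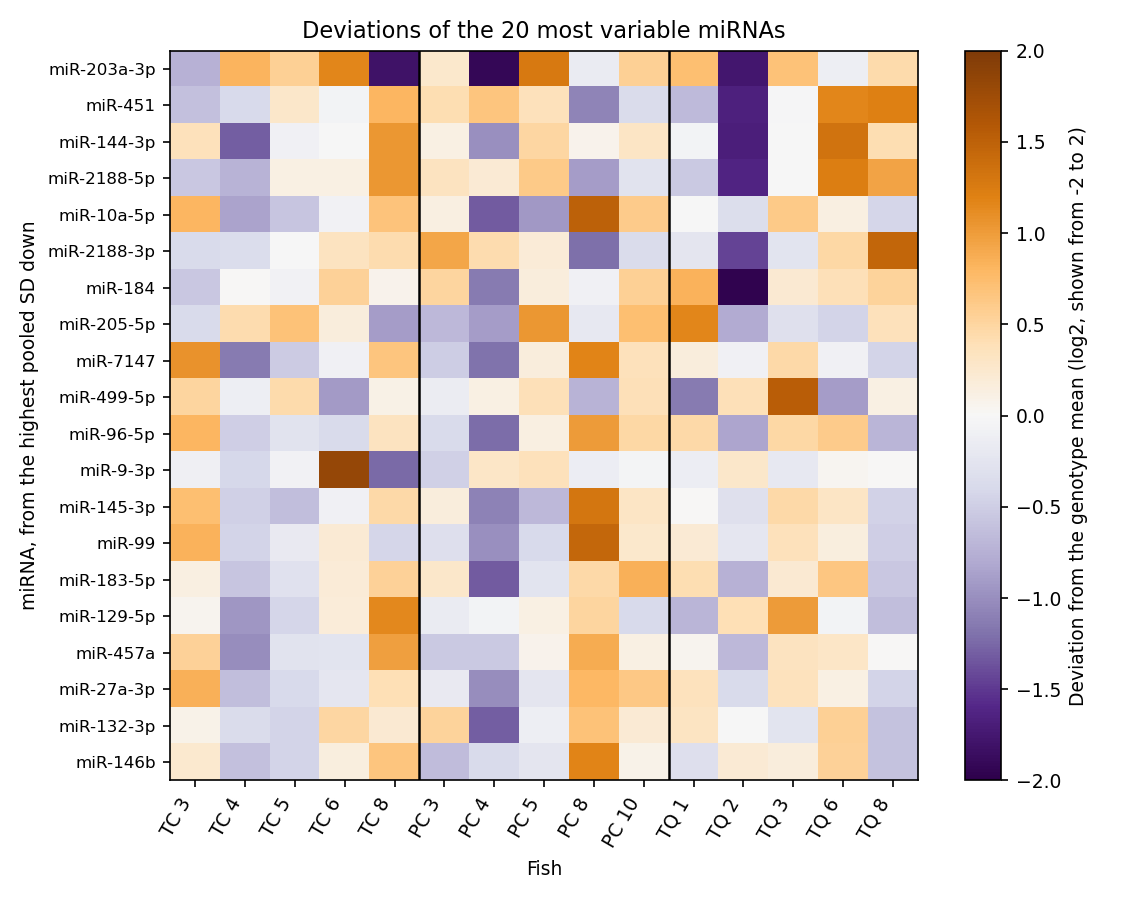
Deviation of each of 15 fish (columns, TC, PC and TQ from left to right) from its genotype mean for the 20 miRNAs with the highest pooled SD (rows), on a log2 scale shown from -2 to 2. miR-203a-3p is low in TC 8, PC 4 and TQ 2, miR-451, miR-144-3p and both arms of mir-2188 are low in TQ 2, and miR-10a-5p, miR-145-3p and miR-99 are high in PC 8 and low in PC 4.

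Kept markers of other tissues had lower median pooled SDs than those of epithelium (0.96) and red blood cells (0.87). Closest to these were slow muscle, with 0.75 for miR-499-5p, and sensory cells. The 6 leukocyte markers, 4 of them kept, had a summed level of 2931 to 3738 scaled counts in TC, 1854 to 3104 in PC and 3046 to 4048 in TQ. Their kept members had a median pooled SD of 0.32, against 0.289 over all 112 miRNAs and 0.87 for the erythroid ones. The smooth muscle markers miR-143, miR-145-5p and miR-145-3p had a median of 0.32, and their sum ranged from 26330 to 31569 in TC, 17789 to 32183 in PC and 17727 to 23689 in TQ. Of the 5 striated muscle markers, 2 were kept, with a summed level of 6004 to 10169 in TC, 5951 to 7590 in PC and 4130 to 5707 in TQ. The sensory cell markers miR-96-5p and miR-183-5p had a median of 0.68, and the sum over their list was 263 to 395 in TC, 216 to 714 in PC and 154 to 418 in TQ. Of the 5 neural markers miR-128-3p alone was kept, with a pooled SD of 0.24. No marker of liver (1 listed), pancreas (4) or digestive epithelium (3) was kept, and the 4 endothelial miR-126 names had 0 counts in every fish. The slow muscle list, miR-499-5p with miR-499-3p, summed to 1147 to 3080 in TC, 1186 to 2513 in PC and 221 to 1438 in TQ. No test was made over a list.

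The pooled SD was related only weakly to level and to sequence composition. Deviations within single fish had a Spearman's rho with GC content from -0.303 in TQ 3 to 0.258 in TQ 8. Across the 112 miRNAs, Spearman's rho of the pooled SD was -0.21 with the mean level, -0.03 with GC content and -0.03 with length, given as a description across miRNAs. The 23 miRNAs with means from 100 to under 300 normalized counts had a median pooled SD of 0.382, the 22 from 300 to under 1000 had 0.278, the 41 from 1000 to under 10000 had 0.294 and the 26 at 10000 or more had 0.263. By seed, the 10 let-7 members had a median pooled SD of 0.188, from 0.143 to 0.284, and the 4 members of the miR-25 and miR-92 family had 0.203. The 3 members that share the seed of miR-15a-5p, miR-16c-5p and miR-457a had 0.504, and the 4 of the miR-17 family had 0.337.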

How the data were processed

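Small RNA of fast muscle was sequenced in 15 fish, and genotype and fish number came from the sample labels. After clipping of adapters and a filter on quality and on length, the authors mapped reads with Hisat2 to the miRBase precursors of Danio rerio. featureCounts then assigned them to mature sequences that GMAP had placed. The authors deposited these counts without normalization, 1 column per fish. For Hisat2 and featureCounts, versions and the handling of multiple matches were not stated in the sources read. The deposited normalized signal is the count divided by 1 size factor per fish, and served for the minimum on the mean level and for the classes of mean level. Mature sequences and their places were read from the study's supplementary reference files, and all 112 kept names had one.

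Counts of the copies of a name were summed, scaled with TMM in edgeR 4.0.16 (R 4.3.3) and taken as log2(scaled count + 1). Fish distances were compared by exact permutation tests over 252 or 3003 arrangements, and single miRNAs with limma 3.58.1 on absolute deviations, padj at most 0.05. Deviations of 1 genotype share its mean, so p values of the permutation tests of distance and spread are approximate. The study's methods have no test of spread, and count models test means, so edgeR and DESeq2 1.42.0 served for scaling and dispersions only. Listed pairs were tested with 100000 permutations within genotypes. Scripts were tested on simulated data, where limma also called some miRNAs simulated without a difference, and figures used matplotlib 3.10.9 with pandas 2.3.3 in Python 3.11.15.

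Named miRNAs were mostly drawn from the following sets, not all of whose members are named in the text. These sets were the 10 most and 10 least variable, and those called or with the 3 lowest p in each test of spread. They also held members of the listed pairs and marker lists, the 5 with the highest mean, and the 10 pairs with the highest correlation. The miRNAs, lists and tests were chosen with earlier results of these data known. Alternatives were other scalings, minimums, pseudocounts and treatments of copies, counts thinned to the shallowest fish, deviations from the genotype median, a median in place of the root mean square, an exact test per miRNA, dispersions of edgeR and DESeq2, subtraction of the counting variance, the fish number as a replicate block, and each fish left out in turn. Leaving out single fish for the components, the highest pairs and the SDs of miR-10a-5p was chosen after seeing the data. Depth was 2422820 to 5669084 counts per fish, and the spread between fish and their libraries, not counting error, limited the precision for most kept names. The marker lists covered striated muscle, slow muscle, erythroid cells, leukocytes, liver, pancreas, digestive epithelium, endothelium, smooth muscle, other epithelia, neural tissue and sensory cells.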

Additional observations from a re-analysis of the deposited data

Results flagged for a closer look

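In 87 sets of 5 fish (total counts, distances and named miRNAs within a genotype), 8 had 1 fish set apart from the other 4 by an unusually large gap. Chance gives about 1 in 20 for independent sets, but these miRNAs were chosen by their spread and share fish. The count can therefore not be set against that rate. For TC 8 the gap in total counts (log2) was 0.749 of the whole TC range, with 2422820 counts against 4578304 to 5669084 in the other TC fish. TC 8 was also apart for miR-181a-5p (gap 0.861 of the range), with 28709 scaled counts against 68754 to 79137. TC 4 was apart for miR-30e-3p (0.857), with 1559 scaled counts against 1362 to 1389. PC 4 was apart for miR-144-3p (0.718), with 3881 against 8084 to 10788, and PC 5 for miR-458-3p (0.872), with 1328 against 1057 to 1088. In TQ, TQ 2 was apart for miR-184 (0.782), with 29.8 against 140 to 213. TQ 8 was apart for miR-92a-3p (0.789), with 18029 against 12615 to 13602, and TQ 1 for miR-206-3p (0.784), with 596 against 727 to 768.

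The spread of miR-206-3p differed between TC and the mean of PC and TQ by 0.56 (0.562 on the log2 scale before rounding, limma, padj = 0.0463), with an SD of 0.83 in TC, 0.32 in PC and 0.15 in TQ.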

How the results depend on the processing

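The differences in distance between genotypes kept their sign in every alternative with all 15 fish, with padj of 0.397 to 0.976 in exact permutation tests. Their size moved with the scaling, since with total counts TC minus PC was -0.138, TC minus TQ -0.000579, PC minus TQ 0.138 and TC minus both parents -0.0693. Among the other alternatives PC minus TQ ranged from 0.00334 (minimum of 1000) to 0.0323 (thinned counts). Leaving out 1 fish gave -0.102 to -0.00386 for TC vs. PC, -0.0843 to 0.00291 for TC vs. TQ, -0.0299 to 0.0627 for PC vs. TQ, and further -0.0932 to -0.00594 for TC vs. both parents. TC vs. TQ turned to 0.00291 without TC 5, and PC vs. TQ to -0.0299 without PC 4, -0.0100 without PC 8 and -0.00075 without TQ 3.

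Of miRNAs with a different spread from limma, TC vs. the parents gave 1, but 0 with DESeq2 size factors, total counts, a minimum of 10, no minimum, only the highest copy, copies as separate loci, deviations from the genotype median or the replicate block, and 2 with the exact permutation test. TC vs. TQ gave 1 at a minimum of 1000, 3 with no minimum and 1 with thinned counts, and PC vs. TQ gave 3 with no minimum. Leaving out 1 fish gave 0 to 4 for TC vs. PC, 0 to 4 for TC vs. TQ, 0 to 1 for PC vs. TQ, and also 0 to 2 for TC vs. the parents. The causes were not tested.

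Some fish numbers occur in more than 1 genotype. The 9 same-numbered pairs had deviations correlated at a median of 0.04 (-0.62 to 0.55), against -0.01 (-0.67 to 0.67) for the 66 others. Whether the numbers pair the fish was not tested. With the fish number as a replicate block limma called 1 miRNA for TC vs. PC (miR-20b-5p, padj = 0.0446), 0 for TC vs. TQ, 0 for PC vs. TQ, and likewise 0 for TC vs. the parents (miR-206-3p, padj = 0.130). The distance was not tested with the block.

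The median SD with total counts was 0.339 in TC, 0.530 in PC and 0.295 in TQ. It was 0.301 in TQ at a minimum of 10 and 0.210 in TC at 1000. With no minimum it was 0.344 in TC, 0.410 in PC and 0.351 in TQ. Square roots of dispersions, converted to log2 units, had medians of 0.308 (TC), 0.371 (PC) and 0.333 (TQ) for edgeR. For DESeq2 these medians were 0.310 (TC), 0.386 (PC) and 0.336 (TQ). Leaving out 1 fish gave 0.220 to 0.261 in TC, 0.290 to 0.324 in PC and 0.242 to 0.267 in TQ.

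Of the 16 listed pairs 9 were called with total counts. With a minimum of 10, 2 of 21 pairs were called, with none also 2 (of 23), and with 1000 the count was 0 of 10, where the pair of mir-2188 was not tested because miR-2188-3p lies under that minimum. Leaving out 1 fish gave 1 to 2. With total counts r turned to 0.30 for miR-143 and miR-145-5p, 0.38 for miR-199-5p and miR-214, 0.33 for miR-30d and miR-30b, 0.56 for miR-199-5p and miR-199-3p and -0.23 for miR-145-5p and miR-145-3p. The spread of miR-10c-5p for TC vs. TQ turned to 0.0159. For miR-25-3p and miR-93 r turned to -0.0770 with DESeq2 size factors, and leaving out 1 fish gave -0.41 (without PC 5) to 0.45. For miR-143 and miR-145-5p it was -0.55 to 0.0184 (without PC 3), and for miR-30d and miR-30b -0.26 to 0.13 (without PC 4). Of the other values of single miRNAs, pairs and components, 1363 stayed on their side of the threshold or within the spread, 18 moved, 29 gained a call and 16 lost one.

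With 5 fish per genotype an SD is itself imprecise, and depth was not the limit for most kept miRNAs. All levels are relative to the other miRNAs of the same fish. Near-identical mature sequences were counted separately, and reads that fit several of them are of unknown treatment. Reads were counted on sequences of another species, so names at 0 say nothing about expression in these fish. Tank, family and sex of the fish were not analysed here.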
